A study of Homo sapiens with 14 samples.

Results

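Kasumi-1 is a human acute myeloid leukemia line that carries the t(8;21) translocation, which joins the genes RUNX1 and RUNX1T1. RNA-seq libraries of Kasumi-1 cells treated with RB98# (n = 2) were compared with libraries of Kasumi-1 cells given DMSO (dimethyl sulfoxide, a common solvent for compounds, n = 2). RB98# is known here only by its code name, and the labels give neither a dose nor a time. These 4 libraries belong to a series of 14 samples built around RBPMS, an RNA-binding protein, whose title also names the deubiquitinase USP1, the RNA mark m6A and the transcription factor FOXO1. The same line with an shRNA against RBPMS (shRBPMS, n = 3) or a control shRNA (shCtrl, n = 3), harvested after 48 h of lentiviral infection and 48 h of puromycin, enters 1 comparison. The 4 remaining samples (RNA immunoprecipitation, m6A sequencing) are not analysed here. All groups are thus a single line with a single genotype, labelled as myeloblasts from peripheral blood. The treatment table held 12437 lines, or 12325 genes once 112 repeated lines were dropped by Ensembl identifier, and 12324 genes passed the count filter and form the comparison. The labels do not say that replicates were separate cultures, so p-values measure only the spread between these libraries, which may be technical.

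Library totals lay between 13.9 and 15.3 M counts (M, 1e+06), and mitochondrially encoded genes took 8.17% to 8.39% of them. RB98# and DMSO lay apart on principal component 1, which held 74.6% of the variance. Counts of the DMSO pair differed by a chi-square of 2.24 per degree of freedom over genes, where sampling noise alone gives about 1, and those of the RB98# pair by 4.90, so neither pair was a library deposited more than once. Between the groups the value was 28.0 to 30.7. The cells carried the transcripts that mark myeloblasts. MPO, the azurophil granule peroxidase, stood at 13056 and 12969 CPM with DMSO (counts scaled to a library of 1e+06, after TMM factors) and at 14756 and 15650.2 CPM with RB98#. KIT, CD34, ANPEP, RUNX1T1 and CD33 were all present, from 793 and 804 CPM with DMSO for KIT to 24.9 and 23.97 for CD33. Among marker lists of other blood cells, 22 lymphoid markers had 7 members in the table with a summed level of 103 to 104 CPM with DMSO and 97.1 to 102 with RB98#, most of it from CD4. The 13 monocyte and macrophage markers in the table summed to 62.9 and 65.6 CPM with DMSO and to 94.5 and 98.4 CPM with RB98#. The 3 erythroid markers in the table summed to 753 and 729.5 CPM with DMSO and 734 and 752 CPM with RB98#, most of it from TFRC, the transferrin receptor of dividing cells. The 5 mast cell and basophil markers summed to 851 and 863 and to 649 and 686 CPM, most of it from KIT, which myeloblasts share. In bulk RNA, fewer cells of a type and less RNA per cell cannot be told apart.

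Cells meet a change in their surroundings with fast waves of transcription. Immediate early genes, among them the AP-1 subunits and EGR1, are switched on without new protein synthesis, largely through MAP kinases and the serum response factor SRF, and many of their products are kinase phosphatases and RNA decay factors that shut the signal off again. SRF also drives actin genes when free actin runs low, ATF4 drives amino acid transport and tRNA charging in the integrated stress response, and SREBP factors drive cholesterol synthesis when membrane sterol falls. MYC drives growth in leukemia cells, with ribosome assembly and DNA replication among its outlets.

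RB98# changed the level of a large part of the genes measured, mostly by little. Of 12324 genes tested, 2530 (20.5%) rose and 2129 (17.3%) fell, which is 37.8% called in either direction (adjusted p under 0.05, edgeR quasi-likelihood test). The median log2 change was 0.42 among the genes that rose and -0.46 among those that fell, and 1770 and 1382 of them moved by under 1.5-fold. At least 2-fold changes were 301 upward (2.44% of genes tested) and 242 downward (1.96%). Large changes were mostly upward, with 60 genes up and 13 down by at least 4-fold, and 19 up and 1 down by at least 8-fold. In 8418 genes (68.3%) the values of the groups did not overlap, which with 2 libraries a group is a common outcome. The authors' deposited table, from their own comparison, calls 1693 genes higher and 1040 lower, and 1690 and 1039 of them were called in the same direction here. Scaling by library totals alone, in place of TMM factors, moved the median change of all genes by -0.10 and turned the split into 1690 higher and 3276 lower, or 34.0% of calls upward against 54.3%. Without DMSO replicate 1 the counts were 1590 and 1253, and without DMSO replicate 2 they were 1547 and 1184.

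**Figure D1:**
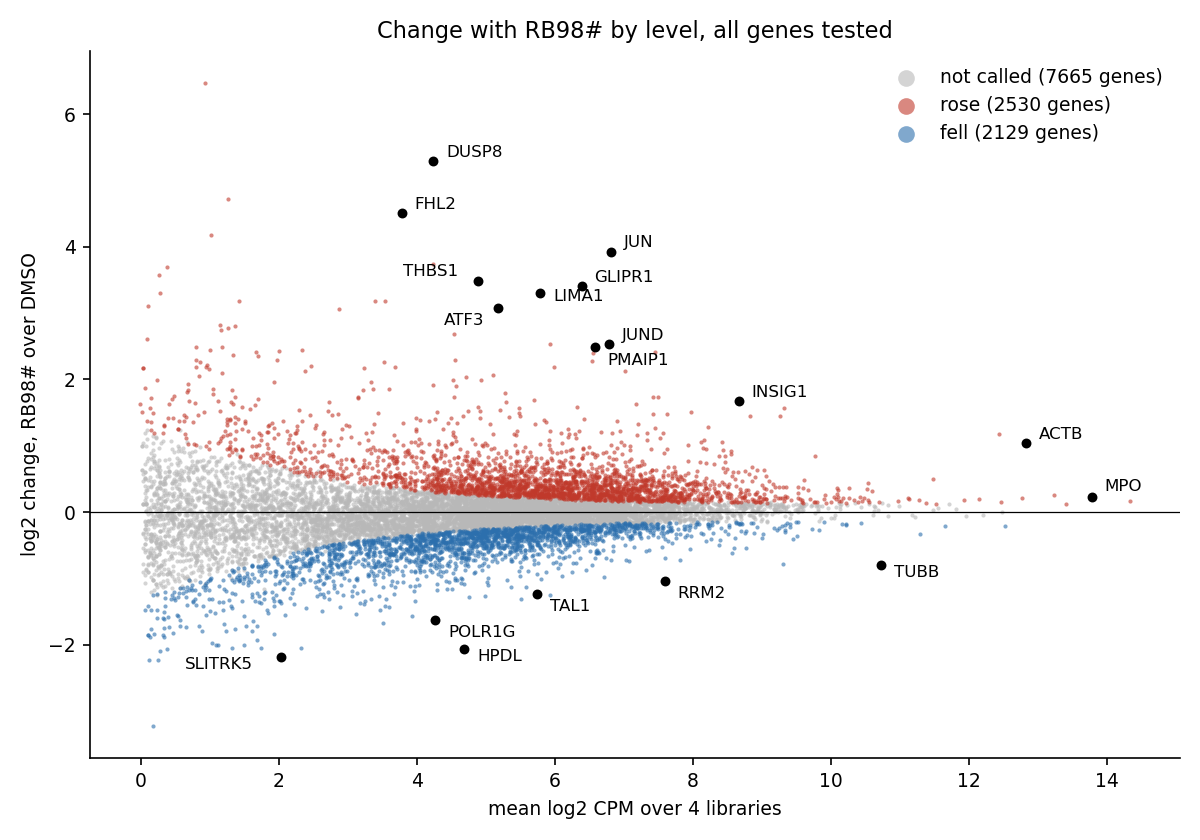
Log2 change with RB98# against DMSO (vertical axis, positive where RB98# is higher) by mean log2 CPM over the 4 libraries (horizontal axis), 1 point per gene tested, with genes past an adjusted p of 0.05 in color and the largest changes named. Points above 0 reach further than points below it, with 60 genes at least 4-fold up against 13 at least 4-fold down.

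The AP-1 genes and their companions stood out among the genes that rose. Of 28 immediate early genes tested, 22 rose and 1 fell, and 15 rose by at least 2-fold, with a median log2 change of 1.03 against 0.00 over all genes. With any single library left out, 17 to 20 members rose. JUN, the founding AP-1 subunit, was at 13.6 and 14.4 CPM in the DMSO libraries and at 216 and 210.0 CPM in the RB98# libraries, a log2 change of 3.93 (SE 0.08, adjusted p = 2.14e-21). JUND, a subunit usually expressed steadily, went from 31.4 and 34.2 CPM to 202 and 177 CPM (log2 change 2.53, SE 0.08, adjusted p = 1.30e-17). Both replicates of RB98# lay far above both of DMSO for these genes. The rule for the largest changes, which named both, required that the groups not overlap, as held in 68.3% of all genes tested. JUNB, by contrast, rose by only 0.41 on the log2 scale, and FOSL2 by 0.89. The FOS genes themselves stayed rare: FOS was at 0.410 and 0.753 CPM with DMSO and 1.502 and 2.39 CPM with RB98# (log2 change 1.71, adjusted p = 0.00563), and FOSB at 0.956 and 0.816 and 2.53 and 2.02 CPM. Leaving out DMSO replicate 1 ended the call of FOS (adjusted p = 0.0693), leaving out DMSO replicate 2 those of FOSB and JUNB (0.0752 and 0.0531), and the RB98# libraries did the same for FOS (replicate 2, 0.0551) and FOSB (replicate 1, 0.0624). Per length, JUN stood at 57.4 and 55.9 FPKM with RB98# (fragments scaled by gene length and library size, the authors' deposited values) and FOS at 0.454 and 0.724 FPKM.

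ATF3, a stress-induced partner of JUN, rose from 5.94 and 9.41 CPM to 69.5 and 61.1 CPM (log2 change 3.08, SE 0.14, adjusted p = 4.14e-15). NR4A1, an orphan nuclear receptor with a role as a myeloid tumor suppressor, rose from 6.69 and 6.02 CPM to 41.4 and 40.1 CPM (log2 change 2.68, adjusted p = 1.53e-14). EGR1, a zinc finger factor that favors the monocyte fate, was scarce throughout, at 2.73 and 3.58 CPM with DMSO and 10.5 and 9.56 CPM with RB98# (log2 change 1.66, adjusted p = 9.10e-07). The RNA decay factors of the family followed: ZFP36L1 rose by 2.17, ZFP36 by 1.42 and the deadenylase cofactors BTG2 and BTG1 by 2.42 and 1.01 on the log2 scale. ZFP36L2, of the same family, was at 199 and 207 CPM with DMSO and at 221 and 208 CPM with RB98# and was not called (log2 change 0.08). The member that fell was MYC (log2 change -0.50), described with its network.

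**Figure D2:**
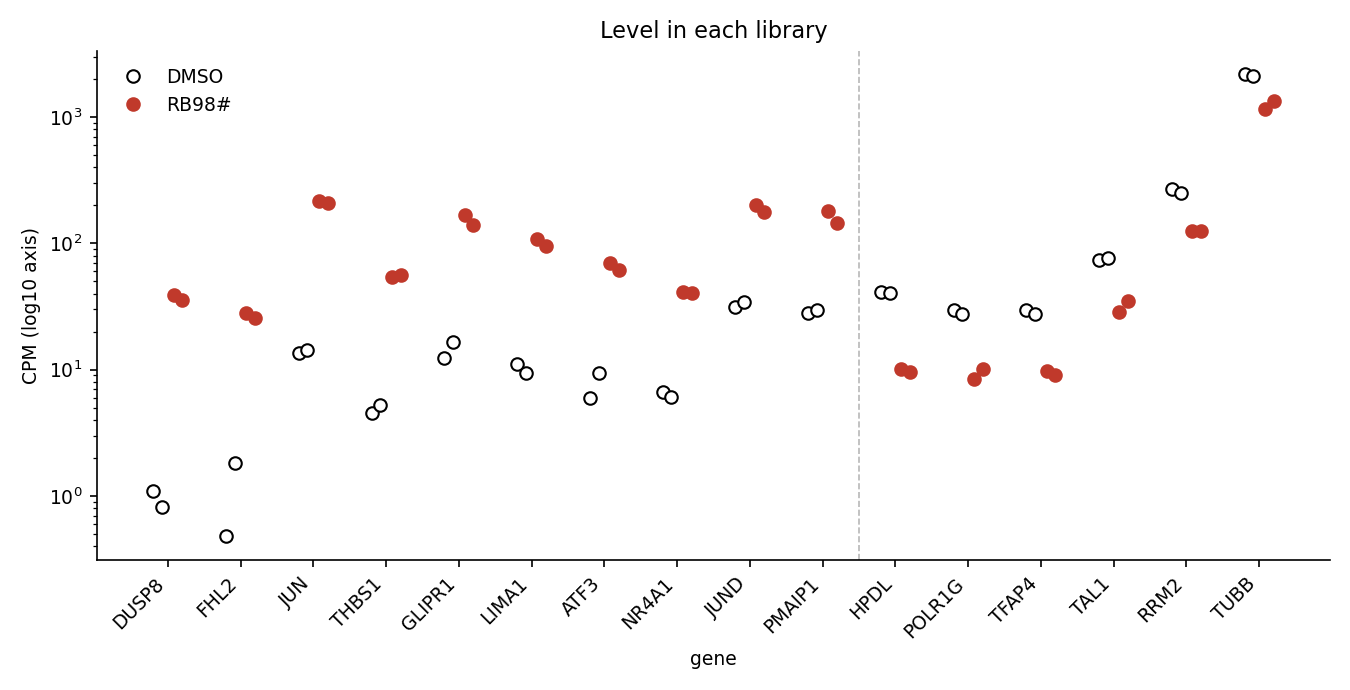
Level in CPM (log10 axis) of 16 genes in each library, with DMSO libraries as open circles and RB98# libraries as filled circles. For the genes on the left, from DUSP8 to PMAIP1, both RB98# points lie above both DMSO points. For the genes on the right, from HPDL to TUBB, they lie below. The genes from DUSP8 to TFAP4 were named by a rule that required groups without overlap, which 68.3% of all genes tested had.

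Serum response factor binds the CArG box, and it is shown here in the promoters of SRF and EGR1, which rose and are known as targets of SRF themselves. The sequences are the 250 bases before the RefSeq start on GRCh38.p14, 5′ to 3′ on the strand of the gene, at chr6:43171019-43171268 (plus strand) for SRF and chr5:138465229-138465478 (plus strand) for EGR1, with CArG boxes in capitals.
SRF: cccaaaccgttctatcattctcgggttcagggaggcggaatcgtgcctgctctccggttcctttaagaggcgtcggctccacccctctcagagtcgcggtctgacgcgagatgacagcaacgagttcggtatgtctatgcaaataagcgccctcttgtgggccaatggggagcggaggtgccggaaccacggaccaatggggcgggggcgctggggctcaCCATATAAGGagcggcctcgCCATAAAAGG
EGR1: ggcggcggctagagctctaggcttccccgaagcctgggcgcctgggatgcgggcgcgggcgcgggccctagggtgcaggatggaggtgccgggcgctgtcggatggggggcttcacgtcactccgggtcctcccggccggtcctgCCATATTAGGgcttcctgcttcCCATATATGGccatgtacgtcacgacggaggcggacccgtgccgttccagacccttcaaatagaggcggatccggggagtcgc
SRF carries CArG boxes that begin at -30 and -10 from its start, and EGR1 carries them at -105 and -83. No other immediate early gene with a promoter entry carried a CArG box in its window. JUN, JUND, ATF3, NR4A1 and FOS were among those without one, so these 2 promoters do not stand for the list. SRF itself went from 80.9 and 78.4 CPM to 261 and 267 CPM, a log2 change of 1.73 (SE 0.06, adjusted p = 1.30e-16). Its groups did not overlap, as in 68.3% of all genes tested. An EGR site (GCGNGGGCG on either strand) starts at -49 in SRF and at -198 in EGR1 and shares no base with the CArG boxes. A match of this kind is a description of the letters in the window and not a measured binding site.

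Dual-specificity phosphatases, some of which act back on MAP kinases, were called about as often as all genes. Of 19 dual-specificity phosphatases, 5 rose and 3 fell (median log2 change 0.18), against 20.5% and 17.3% of all genes. The list also holds members outside the MAP kinase phosphatases, among them DUSP11, DUSP12 and DUSP23, which were not called. Its share therefore does not describe the MAP kinase phosphatases alone, to which every called member belongs. DUSP4 and DUSP9, which also act on MAP kinases, were not called. DUSP8, which acts on JNK and p38 kinases, showed the largest rise of any gene named by the rule, from 1.09 and 0.816 CPM to 39.1 and 35.8 CPM (log2 change 5.29, SE 0.19, adjusted p = 6.60e-17). DUSP10 and DUSP16, phosphatases with the same preference for JNK and p38, rose from 0.751 and 2.32 to 9.56 and 7.39 CPM and from 25.7 and 20.6 to 111 and 99.1 CPM (log2 changes 2.44 and 2.18). DUSP5, a nuclear ERK phosphatase, and DUSP1 rose as well (log2 changes 1.74 and 0.94). The ERK phosphatases DUSP6 and DUSP7 fell, by 0.71 and 0.73 on the log2 scale, and so did DUSP2 (log2 change -0.76, adjusted p = 0.0501 without DMSO replicate 2). Among 7 Sprouty, SPRED and related outputs of ERK, PHLDA1 and ETV5 rose, SPRED1 fell (log2 change -0.71, adjusted p = 0.0823 without DMSO replicate 1) and 4 were not called. Of 39 genes of the MAP kinase cascade, 17 rose (10 without DMSO replicate 1 and 9 without DMSO replicate 2) and 2 fell, none by 2-fold. MAPK13 (p38 delta) rose by 0.95 and MAPK8 (JNK1) by 0.51 on the log2 scale, while MAPK11 (p38 beta) and the small GTPase MRAS fell (log2 changes -0.70 and -0.56). MAPK11 was not called without DMSO replicate 2 or RB98# replicate 2 (adjusted p = 0.126 and 0.0838).

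Kruppel-like factors, zinc finger proteins with roles in quiescence and differentiation, mostly rose: 8 of 12 rose and 2 fell, with a median log2 change of 0.72. KLF6 was at 32.6 and 31.7 CPM with DMSO and at 168 and 143 CPM with RB98# (log2 change 2.27, SE 0.08, adjusted p = 1.30e-16). KLF7 went from 2.53 and 2.13 to 22.6 and 19.7 CPM (log2 change 3.18) and KLF2, a factor of quiescent blood cells, from 3.62 and 3.26 to 16.1 and 15.01 CPM (log2 change 2.18). The groups did not overlap for any of these 3 genes, as in 68.3% of all genes tested. For KLF7 the rule for the largest changes, which named it, required this. KLF1, the erythroid member, fell from 1.64 and 1.88 to 0.751 and 0.672 CPM (log2 change -1.30, adjusted p = 0.0220), a level near the lower end of the table, and was not called once any single library was left out (adjusted p = 0.0526 to 0.128).

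Actin cytoskeleton genes rose widely and from high levels. Of 31 SRF targets and actin cytoskeleton genes, 24 rose, 0 fell and 11 rose by at least 2-fold (median log2 change 0.59), and 18 to 27 rose with any single library left out. Their summed level went from 14707 and 14239 CPM with DMSO to 26674 and 27221 CPM with RB98#. ACTB, the beta-actin gene often used as a reference for other transcripts, was at 4929.9 and 4618 CPM with DMSO and at 9721 and 9878 CPM with RB98# (log2 change 1.04, SE 0.05, adjusted p = 1.53e-14). ACTG1, its gamma counterpart, went from 3452 and 3313 to 7574 and 7808 CPM (log2 change 1.18, SE 0.05, adjusted p = 8.90e-16). They gained more CPM than any other gene. GAPDH, another common reference, was at 3296 and 3116 and 3324 and 3653 CPM and was not called by edgeR (log2 change 0.12). It was called higher by limma-voom (adjusted p = 0.0426), and its log2 change was 0.18 without RB98# replicate 1.

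The largest relative rises in that set belonged to regulators and crosslinkers of actin. FHL2, a LIM-domain cofactor of AP-1 and SRF, went from 0.478 and 1.82 CPM to 28.1 and 25.7 CPM, a log2 change of 4.51 (SE 0.24, adjusted p = 1.88e-13). LIMA1, which bundles actin filaments, went from 11.1 and 9.47 to 108 and 94.6 CPM (log2 change 3.31, SE 0.11, adjusted p = 1.30e-17). The calponin CNN2, the tropomyosin TPM4, the focal adhesion protein ZYX and the myosin heavy chain MYH9 rose by 1.64, 1.58, 1.44 and 0.85 on the log2 scale. Outside this list, RHOB, an early-response GTPase of actin dynamics, rose from 19.9 and 16.3 to 105 and 104 CPM (log2 change 2.53). FILIP1L, a filamin-related protein that is not on the list either, rose from 2.12 and 2.07 to 21.7 and 16.3 CPM (log2 change 3.18). The beta thymosin TMSB4X, at 1047 and 1045 CPM with DMSO, was at 1081 and 1136 CPM with RB98# and was not called. Its log2 change was 0.08, or 0.11 without RB98# replicate 1. A CArG box lay in the RefSeq promoters (250 bases before to 50 after the start, both strands) of 6 of the 28 members with a promoter entry (21.4%), against 351 of 27305 promoters in the whole table (1.29%). These were ACTG1, CNN2, FHL2, FLNA, SRF and TPM4, all of which rose, as did 24 of the 31 members tested. SRF targets were listed on purpose, so a CArG share above that of the whole table can follow from the choice of members. The promoter of FHL2 is shown for its single CArG box, which ends at the base before an E-box (CACGTG), at chr2:105438514-105438763 on the minus strand of GRCh38.p14 per RefSeq, with the CArG box in capitals.
FHL2: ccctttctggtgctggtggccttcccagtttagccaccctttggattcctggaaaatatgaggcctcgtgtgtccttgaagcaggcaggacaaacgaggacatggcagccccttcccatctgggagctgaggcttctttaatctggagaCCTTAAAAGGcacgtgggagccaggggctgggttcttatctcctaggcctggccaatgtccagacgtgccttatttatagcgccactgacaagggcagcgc

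Tubulins, the other main cytoskeletal family, went the opposite way. Of 14 tubulin genes, 8 fell and 2 rose (median log2 change -0.32), and 6 to 7 fell with any single library left out. TUBB lost more CPM than any other gene, from 2196 and 2111 CPM with DMSO to 1149.5 and 1333 CPM with RB98# (log2 change -0.80, SE 0.06, adjusted p = 1.15e-10). TUBA1B went from 2842 and 2731 to 2082 and 2358 CPM (log2 change -0.33, adjusted p = 4.88e-05), and TUBB4B and TUBB4A fell by 0.54 and 1.31 on the log2 scale. The neuronal-type TUBB3 and the epsilon tubulin TUBE1 rose (log2 changes 0.76 and 0.72), the former with an adjusted p of 0.0506 without DMSO replicate 1. Tubulin genes are near copies of one another, and how the counting treated reads shared between them is not given in the sources used here. Summed tubulin levels were 4328 and 4950.3 CPM with RB98#, both below the 6296 and 6530.4 CPM of DMSO.

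**Figure D3:**
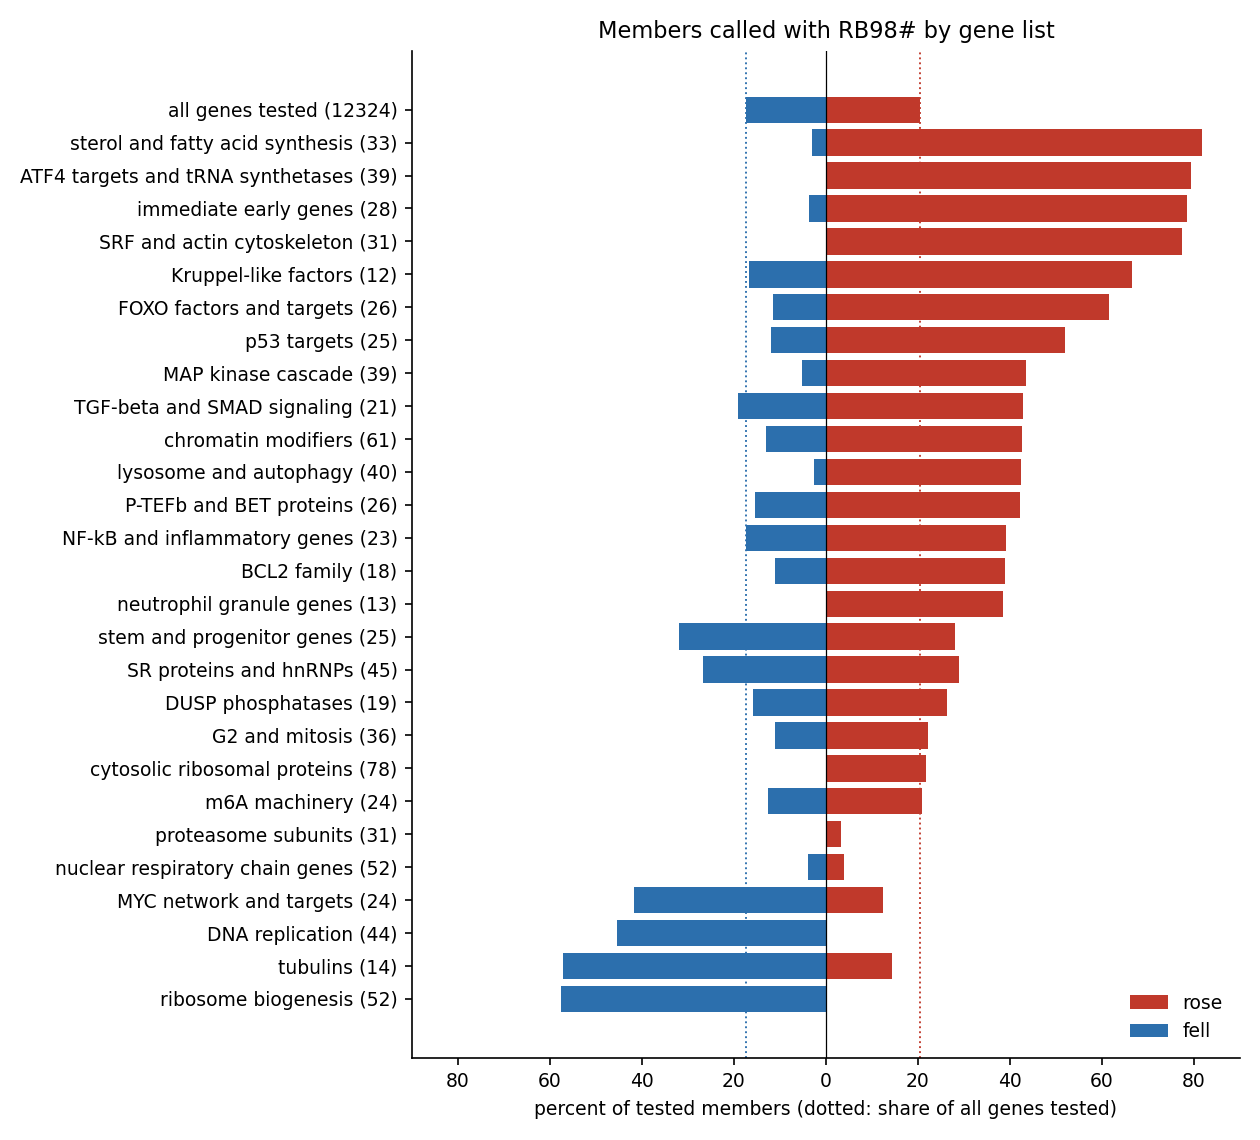
Share of the tested members of each gene list that rose (red, to the right) or fell (blue, to the left) with RB98# at an adjusted p of 0.05, in percent, with the number of members tested beside each name and the share of all genes tested in the top row. Sterol synthesis, ATF4 targets, immediate early genes and the SRF and actin list reach over 75% to the right, and ribosome biogenesis and the tubulins over 55% to the left.

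ATF4 targets rose almost throughout. Of 39 ATF4 targets and cytosolic tRNA synthetases, 31 rose and 0 fell (median log2 change 0.39), while 8 were not called, and 23 to 31 rose with any single library left out. CHAC1, which breaks down glutathione, went from 1.43 and 1.69 CPM to 15.1 and 11.2 CPM (log2 change 3.06, SE 0.23, adjusted p = 1.92e-10). DDIT4 and SESN2, inhibitors of mTORC1, went from 45.9 and 50.7 to 218 and 205 CPM and from 13.5 and 13.2 to 60.3 and 51.9 CPM (log2 changes 2.13 and 2.07). SLC7A11, the cystine transporter, rose from 17.2 and 17.5 to 66.4 and 54.5 CPM (log2 change 1.80). No RB98# library overlapped a DMSO library in these genes, as in 68.3% of all genes tested. For CHAC1 the rule for the largest changes, which named it, required this. ATF4 itself rose by 0.85 on the log2 scale (adjusted p = 1.89e-11), PPP1R15A, the phosphatase subunit that ends the response, by 1.66, DDIT3 (CHOP) by 0.84 and the asparagine synthetase ASNS by 0.62. The tRNA synthetases moved less, with 0.69 for CARS1, 0.67 for TARS1 and 0.55 for GARS1, and WARS1 was not called (log2 change 0.02). Heat shock and endoplasmic reticulum chaperone genes, listed together, were called in both directions. Of 36, 9 rose (25%) and 6 fell (16.7%), against 20.5% and 17.3% of all genes. Both counts were lower with either DMSO library left out. Since the list mixes heat shock and endoplasmic reticulum genes, it does not describe an arm of the unfolded protein response. HERPUD1 and ERN1 rose (log2 changes 0.67 and 0.84), and HSPA8 fell from 3544 and 3376 to 2977 and 3012 CPM (log2 change -0.21), which was not called without DMSO replicate 1 or 2 (adjusted p = 0.192 and 0.0515).

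ATF4 binds with C/EBP partners to an element spelled TGATGNAA, and this element is shown in the promoter of CHAC1, the list's largest rise, at chr15:40953221-40953470 on the plus strand of GRCh38.p14 per RefSeq. Capitals mark the element, which lies there on the opposite strand.
CHAC1: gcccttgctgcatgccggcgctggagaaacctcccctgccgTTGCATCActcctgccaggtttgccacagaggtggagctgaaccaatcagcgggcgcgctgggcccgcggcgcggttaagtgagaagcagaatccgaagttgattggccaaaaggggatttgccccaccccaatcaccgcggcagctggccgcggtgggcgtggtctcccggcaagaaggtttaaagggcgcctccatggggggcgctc
The element starts 209 bases before the start of CHAC1. It lay in 10 of the 34 promoters of the list that have an entry (29.4%), among them that of ASNS, and in 3.67% of all promoters of the table. It was searched on both strands, was added after the values had been seen, and no match shows binding. ATF4 targets were listed on purpose, so a raised share of the element can follow from the choice of members.

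Genes of cholesterol and fatty acid synthesis rose as a group. Of 33 members, 27 rose and 1 fell (median log2 change 0.44), with a summed level of 6916 and 6677 CPM with DMSO and 10296 and 10437 CPM with RB98#. With any single library left out, 23 to 28 members rose. INSIG1, the sterol-sensing brake on SREBP, went from 189 and 201 CPM to 655 and 592 CPM (log2 change 1.68, SE 0.06, adjusted p = 1.30e-16). HMGCS1, at the head of the mevalonate pathway, went from 332 and 326 to 929 and 871 CPM (log2 change 1.45, SE 0.06). The groups lay well apart in both genes. The order within the pathway was uneven: MSMO1 rose by 1.59 and IDI1 by 1.06 on the log2 scale, while FASN, of the fatty acid arm, rose by 0.36. ELOVL6, a fatty acid elongase, was the member that fell (log2 change -0.47), and it was not called without DMSO replicate 1 (adjusted p = 0.0601). Lysosome and autophagy genes rose in part, with 17 of 40 up (10 without DMSO replicate 1 and 11 without DMSO replicate 2) and 1 down. NPC1, which exports cholesterol from lysosomes, rose from 35.3 and 33.9 to 65.8 and 64.4 CPM (log2 change 0.91), and TFE3 and SQSTM1 rose by 0.79 and 0.73 on the log2 scale.

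**Figure D4:**
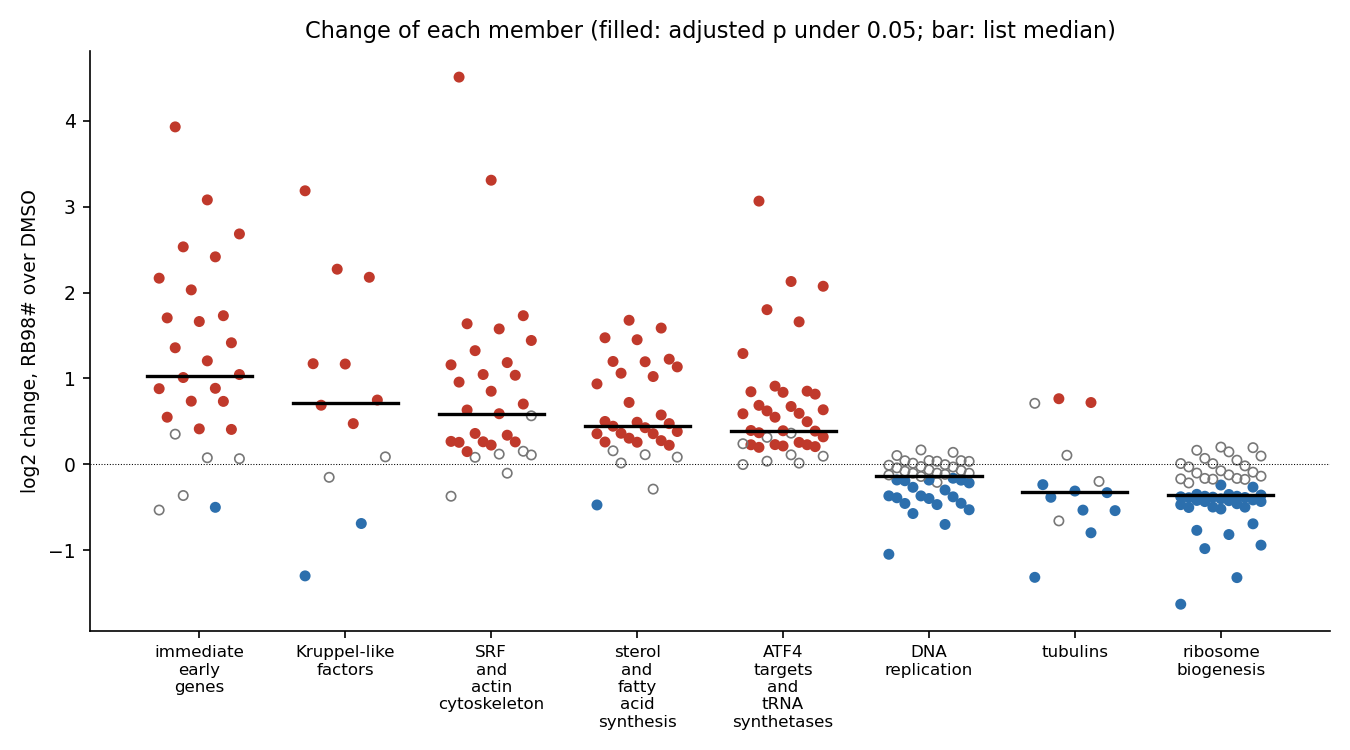
Log2 change with RB98# against DMSO of each tested member (1 point per gene) in 8 gene lists, with genes past an adjusted p of 0.05 filled, others open, and the list median as a bar. Medians run from 1.03 in the immediate early genes to -0.35 in ribosome biogenesis.

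Genes that p53, FOXO factors and stress signals share in controlling survival and the cell cycle moved in both directions. Of 25 p53 targets, 13 rose and 3 fell (median log2 change 0.34), with 8 without DMSO replicate 2 on the rising side. PMAIP1 (NOXA), a BH3-only killer protein, went from 28.2 and 29.6 CPM to 180.1 and 146 CPM (log2 change 2.50, SE 0.09, adjusted p = 1.30e-16). CDKN1A (p21) went from 9.42 and 9.29 to 40.2 and 33.97 CPM (log2 change 1.99, SE 0.12). MDM2 fell slightly and AEN, a p53-induced nuclease, fell by 0.68 on the log2 scale, and BAX was not called. Of the 5 members with the largest rises, BTG2 also stands on the immediate early list, SESN2 on the ATF4 list and BBC3 (PUMA, log2 change 1.78) on the FOXO list. Without DMSO replicate 2, BBC3 was not called (adjusted p = 0.0716). Within the BCL2 family, 7 of 18 rose (4 without DMSO replicate 1 and 3 without DMSO replicate 2) and 2 fell, with killers and guardians on the same side. The guardian MCL1 rose from 260.0 and 268 to 511 and 461 CPM (log2 change 0.88) and BCL2 by 0.83, and BCL2L1 (BCL-XL) fell by 0.63 on the log2 scale.

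The genes in the title of the series changed little. RBPMS was at 7.17 and 6.400 CPM with DMSO and 6.62 and 8.06 CPM with RB98# (log2 change 0.11, SE 0.19, adjusted p = 0.678), with 105, 102, 97 and 108 counts in DMSO 1, DMSO 2, RB98# 1 and RB98# 2, and the groups overlapped. USP1 was at 153 and 171 and 171 and 147 CPM (log2 change -0.03, SE 0.07, adjusted p = 0.785). Neither was called, although USP1 was called lower without RB98# replicate 1 (log2 change -0.16, adjusted p = 0.0478). FOXO1 fell from 15.3 and 16.1 CPM to 11.3 and 11.2 CPM (log2 change -0.48, SE 0.14, adjusted p = 0.00814), and was not called without DMSO replicate 2 (adjusted p = 0.0958) or by DESeq2 (adjusted p = 0.0584). Its relative FOXO3 rose by 0.90 on the log2 scale. Of 26 FOXO factors and targets, 16 rose (10 without DMSO replicate 2) and 3 fell (median log2 change 0.37), among them TXNIP, which holds back glucose uptake, from 101 and 105 to 266 and 229 CPM (log2 change 1.27). KLF6, KLF2 and BBC3 also stand on that list. Of 13 USP1 partners and substrates, 2 rose (0 without DMSO replicate 1 and 1 without DMSO replicate 2) and 4 fell (1 without DMSO replicate 1 and 2 without DMSO replicate 2). With all libraries in, those shares were 15.4% and 30.8%, against 20.5% and 17.3% of all genes. ID1, an inhibitor of differentiation whose protein USP1 stabilizes, fell from 40.1 and 38.02 to 23.3 and 22.7 CPM (log2 change -0.76). Of 24 m6A writers, erasers and readers, 5 rose (20.8%) and 3 fell (12.5%), against 20.5% and 17.3% of all genes. None of them moved by 2-fold, and library totals alone turned these counts into 3 and 7. The counts were 1 to 6 higher and 0 to 3 lower with any single library left out, lowest without DMSO replicate 1. RBM15, a subunit of the m6A writer, went from 30.9 and 28.2 to 45.2 and 49.4 CPM (log2 change 0.68, adjusted p = 4.68e-06).

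Regulators of RNA polymerase II elongation and of chromatin were among the genes that rose. Of 26 genes of P-TEFb, its partners and BET proteins, 11 rose (7 without DMSO replicate 1) and 4 fell (0 without DMSO replicate 1, 0 without DMSO replicate 2 and 0 without RB98# replicate 1; median log2 change 0.15). HEXIM1, which holds P-TEFb inactive, went from 96.5 and 101 CPM to 231 and 218 CPM (log2 change 1.19, SE 0.06, adjusted p = 3.24e-13). SERTAD1, a regulator of CDK4, and the elongation factor ELL2 rose (log2 changes 2.19 and 1.49), and so did the BET protein BRD2 and the scaffold AFF4 (log2 changes 0.61 and 0.80). Of 57 replication-dependent histones, 10 were in the table, at 20.8 to 24.6 CPM in sum, and none was called by edgeR, DESeq2 or limma-voom, nor was any past an unadjusted p of 0.05 in edgeR (0 genes). Of 61 chromatin modifiers, 26 rose (14 without DMSO replicate 1 and 15 without DMSO replicate 2) and 8 fell (4 without DMSO replicate 1 and 5 without DMSO replicate 2). HDAC5, the demethylases KDM7A and KDM3A and the acetyltransferase CREBBP rose by 1.05, 0.98, 0.97 and 0.89, and DNMT3A fell by 0.46 on the log2 scale.

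Ribosome assembly was the group that fell most widely. Of 52 ribosome biogenesis genes, 30 fell and 0 rose (median log2 change -0.35), or 26 to 36 with any single library left out (4 without RB98# replicate 2 rose), and their summed level went from 6089 and 6093 CPM to 5234 and 5118 CPM. POLR1G and POLR1B, subunits of RNA polymerase I, went from 29.6 and 27.5 to 8.396 and 10.2 CPM (log2 change -1.63, SE 0.13, adjusted p = 5.83e-10) and from 142 and 135 to 65.9 and 74.5 CPM (log2 change -0.98, SE 0.07, adjusted p = 1.46e-10). RRS1, a large subunit assembly factor, went from 60.4 and 68.01 to 24.4 and 27.2 CPM (log2 change -1.32). Every RB98# value lay below every DMSO value in these genes, and 68.3% of all genes tested had groups that did not overlap. For POLR1G the rule for the largest changes, which named it, required this. DDX21, a nucleolar RNA helicase, was at 528 and 544 and 637 and 549 CPM and was not called. Without RB98# replicate 2 its log2 change was 0.25. An E-box (CACGTG, its own reverse complement, added after the values had been seen) lay in 16 of the 45 promoters of the list with an entry (35.6%) and in 7.43% of all promoters of the table. Of these 16 genes, 9 fell and 7 were not called, so they fell about as often as the whole list (30 of 52, 57.7%). A raised share of the E-box can follow from the choice of members. No match shows binding, and a role of any factor that binds it was not tested. The ribosomal proteins moved little: 17 of 78 rose and 0 fell, by at most 0.22 on the log2 scale, and their median of 0.10 became -0.00 under library totals alone, where 0 rose and 1 fell. The count that rose was 0 without DMSO replicate 1, 0 without DMSO replicate 2 and 51 without RB98# replicate 1.

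MYC, a known activator of ribosome assembly genes, fell from 389 and 391 CPM to 271 and 281 CPM (log2 change -0.50, SE 0.06, adjusted p = 1.87e-07). Of 24 genes of its network, 10 fell (5 without DMSO replicate 1 and 4 without DMSO replicate 2) and 3 rose (median log2 change -0.13). Its antagonist MXD1 rose from 25.5 and 23.97 to 84.4 and 74.4 CPM (log2 change 1.69, SE 0.09, adjusted p = 4.50e-13). The target ODC1, of polyamine synthesis, fell from 523 and 512 to 355 and 360.4 CPM (log2 change -0.53), and the partner MAX by 0.38 on the log2 scale. The values of the groups did not overlap in any of these, as in 68.3% of all genes tested. TFAP4, a helix-loop-helix factor downstream of MYC, fell from 29.7 and 27.7 to 9.83 and 9.11 CPM (log2 change -1.60, adjusted p = 4.17e-10).

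Called DNA replication genes were lower with RB98#. Mitosis genes were called in both directions, with 22.2% higher and 11.1% lower against 20.5% and 17.3% of all genes. Of 44 replication genes, 20 fell (11 without DMSO replicate 1 and 11 without DMSO replicate 2), 0 rose (2 without RB98# replicate 1 and 1 without RB98# replicate 2) and 24 were not called, with a median log2 change of -0.13 over the list. RRM2, a ribonucleotide reductase subunit, went from 267 and 252 CPM to 126 and 126 CPM (log2 change -1.05, SE 0.06, adjusted p = 1.66e-12). UHRF1, which guides maintenance methylation, went from 245 and 236 to 139.5 and 157 CPM (log2 change -0.70), and POLA2, of the primase complex, fell by 0.57 on the log2 scale. Of 36 mitosis genes, 8 rose and 4 fell, counts that became 5 and 10 under library totals alone, and ran from 4 to 13 and from 1 to 5 with any single library left out (lowest without a DMSO library). MKI67, the proliferation marker, stood at 522 and 503 CPM with DMSO and 490.2 and 501 CPM with RB98# and was not called (log2 change -0.05). Under library totals alone it was called lower by edgeR (log2 change -0.15, adjusted p = 0.0288). The G1 cyclins and their partners split as well, 6 up and 7 down (2 without DMSO replicate 1) of 21. With all libraries in, those shares were 28.6% and 33.3%, against 20.5% and 17.3% of all genes. CCNE1 and E2F8 fell (log2 changes -0.69 and -0.74), and CCND2 rose from 125 and 122 to 195 and 167 CPM (log2 change 0.55). The inhibitors CDKN1B and CDKN2C fell by 0.42 and 0.40.

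Genes of the leukemic progenitor were called in both directions, with the surface markers KIT and CD34 lower. Of the stem and progenitor genes 28% rose and 32% fell, and of the genes tied to the translocation 35.7% and 28.6%. Over all genes 20.5% rose and 17.3% fell. KIT, the stem cell factor receptor, went from 793 and 804 CPM with DMSO to 589 and 619 CPM with RB98# (log2 change -0.40, SE 0.05, adjusted p = 1.86e-06), and CD34 from 209 and 199.8 to 154 and 161 CPM (log2 change -0.37, SE 0.06, adjusted p = 3.81e-05). Of 25 stem and progenitor genes, 8 fell, 7 rose (4 without DMSO replicate 2) and 10 were not called (median log2 change -0.02). TAL1, a core factor of blood stem cells, went from 73.2 and 75.98 to 28.7 and 34.9 CPM (log2 change -1.23, SE 0.09, adjusted p = 1.87e-10), and IKZF2 and LYL1 fell by 1.02 and 0.73 on the log2 scale. FLI1, HHEX and LMO2, of the same circuit, rose by 0.64, 0.64 and 0.54. MYB was at 374 and 389 and 429 and 394 CPM and was not called (log2 change 0.11, or 0.17 without RB98# replicate 2). Of 14 genes tied to the translocation, 5 rose (3 without DMSO replicate 2) and 4 fell (2 without DMSO replicate 1 and 2 without DMSO replicate 2). RUNX1T1, which gives the fusion its 3′ part, rose from 158 and 154 to 200.3 and 203 CPM (log2 change 0.37, adjusted p = 3.50e-05), and WT1 fell from 18.8 and 19.5 to 10.7 and 10.01 CPM (log2 change -0.89).

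Of 13 neutrophil granule genes, 5 rose (2 without DMSO replicate 1 and 0 without DMSO replicate 2) and 0 fell, and all 5 that rose (MPO, ELANE, AZU1, PRTN3 and CTSG) encode azurophil granule proteins. MPO rose by 0.22 on the log2 scale (SE 0.05, adjusted p = 4.59e-04), a change that was not called without DMSO replicate 1 or 2 (adjusted p = 0.0601 and 0.0815), nor was ELANE or CTSG without DMSO replicate 2 (0.115 and 0.165). ELANE also lost its call without DMSO replicate 1 (adjusted p = 0.310) and under library totals alone (0.238), and CTSG under DESeq2 (0.0566). Of 13 monocyte and macrophage markers, FCGR1A, FCGR2A and TREM1 rose (log2 changes 1.07, 0.86 and 1.37), CSF1R fell from 1.64 and 1.25 to 0.614 and 0.597 CPM and the other 9 were not called. That is 23.1% higher and 7.69% lower, against 20.5% and 17.3% of all genes. The fall of CSF1R was not called once any single library was left out (adjusted p = 0.0687 to 0.240). Of 16 myeloid fate factors, 5 rose (31.25%) and 3 fell (18.75%), against 20.5% and 17.3% of all genes. CEBPA, the granulocyte master factor, fell from 24.3 and 23.5 to 13.04 and 14.2 CPM (log2 change -0.81, SE 0.12, adjusted p = 1.12e-05) and CEBPB rose from 9.69 and 8.28 to 17.7 and 13.9 CPM (log2 change 0.82, SE 0.16, adjusted p = 1.99e-04). CEBPG, a partner of ATF4, rose by 0.64 on the log2 scale. CD33, a surface marker of myeloid cells, fell from 24.9 and 23.97 to 11.9 and 15.5 CPM (log2 change -0.84).

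Signals to and from the surroundings were mixed. Of 30 cytokine and growth factor receptors, 9 rose and 5 fell, the latter 1 to 3 with any single library left out. CXCR4, the homing receptor for bone marrow, went from 3.35 and 4.58 CPM to 19.7 and 18.6 CPM (log2 change 2.26, SE 0.17, adjusted p = 1.62e-10). CXCL8, a neutrophil attractant, went from 7.99 and 7.84 to 36.2 and 23.1 CPM (log2 change 1.91), and TNFSF10 (TRAIL) fell from 6.896 and 6.02 to 2.73 and 2.17 CPM (log2 change -1.39). THBS1, a secreted matrix protein of platelets and monocytes, went from 4.57 and 5.21 to 53.8 and 56.5 CPM (log2 change 3.49, SE 0.12, adjusted p = 6.60e-17). It was the 1 called gene of 4 megakaryocyte and platelet markers in the table. Of 23 NF-kB and inflammatory genes, 9 rose and 4 fell (2 without DMSO replicate 2), led by CXCL8, RELB and the inhibitor TNFAIP3 (log2 changes 1.41 and 1.40 for the last pair). Of 21 TGF-beta and SMAD genes, 9 rose and 4 fell, and the largest rises were those of negative regulators: SKI from 87.9 and 93.9 to 273 and 236 CPM (log2 change 1.49), SKIL, SMAD7 and PMEPA1 (log2 changes 1.34, 1.26 and 1.19). Of 27 interferon genes 3 rose and 5 fell, counts that became 1 and 2 without DMSO replicate 1, the same without DMSO replicate 2 and under DESeq2, and 1 and 3 without RB98# replicate 2. In antigen presentation, the class II regulator CIITA fell from 3.004 and 2.26 to 0.887 and 0.896 CPM (log2 change -1.55) and HLA-E rose by 0.56 on the log2 scale.

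The largest falls outside these lists were in genes of varied function. HPDL, a mitochondrial enzyme of tyrosine-derived ubiquinone synthesis, went from 41.3 and 40.5 CPM to 10.03 and 9.56 CPM (log2 change -2.06, SE 0.12, adjusted p = 5.37e-13). SLITRK5, a synaptic adhesion protein, went from 5.39 and 7.22 to 1.502 and 1.27 CPM (log2 change -2.18), and PYCR3, of proline synthesis, from 16.4 and 15.2 to 5.19 and 6.197 CPM (log2 change -1.47). The rule that named these 3 genes required that the groups not overlap. MAT2A, which makes S-adenosylmethionine, the methyl donor for m6A among others, lost CPM as few genes did, from 809 and 785 CPM to 450.3 and 479 CPM (log2 change -0.78, SE 0.05, adjusted p = 4.32e-11). The lncRNA LINC01521, MAP6D1, JMJD4, SMIM10, EMSLR, GBGT1, PALD1, SCO2 and the homeobox gene IRX3 fell by 1.41 to 2.05 on the log2 scale. SERF1B fell by 1.43, but its near-identical copy SERF1A rose (log2 change 2.44, not called by DESeq2 with an adjusted p of 0.320), so reads may have been split between them. Exons of POLR1G overlap those of ERCC1 and PPP1R13L, neither of which was called. Exon overlaps of MAP6D1, JMJD4, SMIM10, EMSLR, GBGT1, PALD1 and SCO2 are not given here, so reads shared with other genes are possible there. Exons of IDI1, DDIT3 and SQSTM1, which rose, overlap those of opposite-strand genes that also rose. These were IDI2-AS1 for IDI1 (log2 change 1.09), MARS1 and MBD6 for DDIT3 (0.39 and 0.46) and MRNIP for SQSTM1 (0.58). The counting's use of strand is not given in the sources used here, so reads may be shared.

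The largest rises outside the lists included IQCN, a little-studied IQ-motif gene, from 2.39 and 2.89 CPM to 38.8 and 31.7 CPM (log2 change 3.73, SE 0.17, adjusted p = 4.79e-15). IQCN lies at chr19:18257097-18274509 (minus strand), and the nearest upstream gene on that strand in the table is JUND, which ends 5.25 kb before it. Reads that run on from JUND into IQCN were not tested. GLIPR1, a CAP-domain protein, rose from 12.4 and 16.6 to 169 and 139.9 CPM (log2 change 3.41), and its exons overlap those of KRR1 on the opposite strand, which fell (log2 change -0.50). For reference, JUN lies at chr1:58780788-58784327 (minus strand), DUSP8 at chr11:1554044-1571920 (minus strand), FHL2 at chr2:105357712-105438513 (minus strand) and HPDL at chr1:45326905-45328533 (plus strand) (GENCODE 29, GRCh38). Below the level set for naming genes, SULT1A4 had 1, 0, 48 and 54 counts in DMSO 1, DMSO 2, RB98# 1 and RB98# 2, and LDB3, a muscle LIM protein, 2, 3, 71 and 56. These 2 were picked after their values were seen, and SULT1A4 has the near-identical copy SULT1A3, so its counts may be shared.

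Energy and housekeeping groups differed in how many of their genes were called. Over all genes 20.5% rose and 17.3% fell. The shares were 32.1% and 7.14% for hypoxia and glycolysis genes and 36% and 12% for NRF2 and antioxidant genes. For splicing regulators they were 28.9% and 26.7%, and for snoRNA host genes 10% and 30%. Of 52 nuclear respiratory chain genes, 2 rose and 2 fell, and of 31 proteasome subunits 1 rose and 0 fell, both under the 37.8% of all genes. For the respiratory chain, the counts were 0 and 9 under library totals alone and ran from 0 to 10 higher (most without RB98# replicate 1) and 0 to 7 lower (most without RB98# replicate 2) with any single library left out. For the proteasome they were 0 and 6 under library totals alone, 3 and 2 without RB98# replicate 1, and 2 and 3 without RB98# replicate 2. Of 15 mitochondrially encoded genes, 7 rose and 3 fell, by between -0.20 and 0.25 on the log2 scale, which under library totals alone moved their median from 0.10 to -0.00. The count that rose was 2 without DMSO replicate 1 and 1 without DMSO replicate 2, and that which fell 1 without DMSO replicate 1 and 0 without DMSO replicate 2. Of 28 hypoxia and glycolysis genes 9 rose and 2 fell, and the glucose transporters parted: SLC2A3 rose from 56.4 and 59.2 to 111 and 113 CPM (log2 change 0.95), SLC2A1 fell by 0.46. Of 25 NRF2 and antioxidant genes, 9 rose (5 without DMSO replicate 2) and 3 fell (1 without DMSO replicate 1), and the ferritin subunit FTH1 rose by 0.59. Splicing regulators gave 13 up and 12 down of 45, or 6 and 19 under library totals alone and 6 to 14 and 6 to 16 with any single library left out, lowest without DMSO replicate 1. SRSF7 went from 459.6 and 455 to 297 and 303 CPM (log2 change -0.61), while SRSF5 rose from 262 and 276 to 383 and 341 CPM (log2 change 0.43). Of 20 snoRNA host genes, 6 fell and 2 rose, SNHG15 by the most (log2 change -0.87).

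Direction went with gene length. Among protein-coding genes, the tercile with the longest span from start to end in GENCODE 29 (54.6 kb and over) had 32.1% of its members higher and 10.2% lower, and the tercile with the shortest span (up to 18.4 kb) had 13.3% higher and 24.7% lower. Long genes are also measured on more reads, and the order was the same within levels. Among genes of high level, 48.4% of the longest tercile rose and 7.45% fell, against 21.3% and 20.4% of the shortest tercile. Among genes of low level the shares were 13.5% and 12.2% in the longest tercile and 8.58% and 22.4% in the shortest. Genes whose longest transcript model has 1 exon, 170 in all, fell in 35.9% and rose in 15.9%. The shift itself was small, with a median log2 change of 0.11 in the longest tercile and -0.08 in the shortest. Changes of at least 2-fold were 99 up and 31 down in the longest tercile and 109 up and 124 down in the shortest. Genes are not independent replicates, so no test is given.

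**Figure D5:**
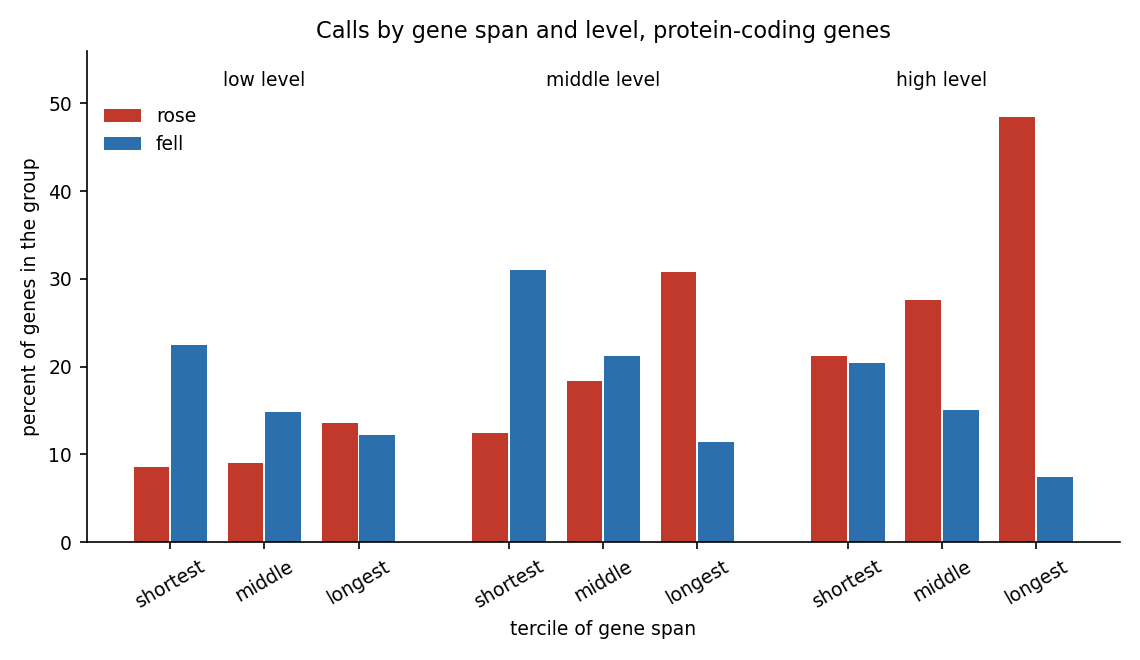
Share of protein-coding genes that rose (red) or fell (blue) with RB98# at an adjusted p of 0.05, in percent of the genes in each tercile of gene span, for genes of low, middle and high level (terciles of mean log2 CPM). In each level the longest tercile has the highest share of rising genes, up to 48.4%, and the lowest share of falling genes, down to 7.45%.

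The last comparison asked whether RB98# and the knockdown of RBPMS change the same genes by different amounts, each against its own control, in 1 model over 10 libraries and the 12126 genes of both tables. The effects differed in 988 genes (8.15%), 581 with the higher effect under RB98# (4.79%) and 407 with the lower (3.36%). That count depends on the fit: leaving out 1 library gave 92 to 1541 genes, blocking on replicate numbers 4497, and a covariate for the label set of the knockdown libraries 5439. Of 2505 genes that rose with RB98# and are in both tables, 1141 had a positive change in the knockdown, where the median change of the 2505 was -0.04. Of 2108 that fell, 891 had a negative change there, with a median of 0.07. The share of all genes with a positive or negative change in the knockdown is not given here. Without it these counts do not tell whether the effects of RB98# and the knockdown go together, oppose each other or are unrelated. In the CPM values below, the knockdown libraries are scaled over all 10 libraries, and DMSO and RB98# over their own 4. Levels of the 2 experiments are therefore not on a single scale. Each effect's own values for JUN were 13.6 and 14.4 CPM with DMSO and 216 and 210.0 with RB98#, and 7.83, 45.8 and 21.4 CPM with shCtrl and 8.36, 26.7 and 12.3 with shRBPMS, a difference of 4.59 on the log2 scale (SE 0.97, adjusted p = 0.0266). DUSP8 was at 0.845, 0.497 and 0.565 CPM with shCtrl and 1.53, 1.63 and 1.09 with shRBPMS (difference 4.12, adjusted p = 0.00248), FHL2 at 0.311, 0.604 and 0.932 and 0.442, 0.919 and 0.760 (difference 4.36, adjusted p = 0.0127) and THBS1 at 2.09, 1.85 and 2.202 and 3.02, 0.707 and 0.940 (difference 3.91, adjusted p = 0.0128). The difference was called for DUSP8 whichever library was left out, whereas JUN, FHL2 and THBS1 lost the call without a library of the RB98# experiment (adjusted p up to 0.140, 0.0684 and 0.0841), and JUN also without shRBPMS replicate 3 (adjusted p = 0.0631). CDKN1C, a CDK inhibitor, was not called with RB98# and was at 9.57, 6.71 and 7.17 CPM with shCtrl and 0.402, 0.318 and 0.398 with shRBPMS (difference 4.75, adjusted p = 0.00163). On the other side, CD33 was at 12.3, 15.9 and 17.3 CPM with shCtrl and 60.1, 45.5 and 44.3 with shRBPMS against its fall with RB98# (difference -2.56, adjusted p = 0.00392), and RAC2, a GTPase of blood cells, at 14.2, 14.1 and 15.6 and 112, 65.04 and 64.1 (difference -2.87, adjusted p = 0.00416).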

How the data were processed

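RNA-seq of 4 Kasumi-1 libraries, RB98# (n = 2) and DMSO (n = 2), was analysed from gene-level raw counts deposited by the authors, with 6 knockdown libraries for the last comparison. FPKM values in the same deposited table were identified from the values, since counts over FPKM gave a ratio that was constant between libraries in 99.94% of genes (tolerance 0.1%). Fold changes (log2) and p-values of the authors' deposited table served only for the count set beside that of this fit. The submitters' processing notes list, with no role or order, DESeq2 1.32.0, StringTie, featureCounts 2.0.1, HISAT2 2.2.1 and fastp 0.22.0 and the build hg38. Strand setting and treatment of shared reads are not given in the sources used here. The lowest summed count of a gene over the 4 libraries was 50, so rarer transcripts are not analysed here. The 6 other per-library columns were not used.

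Repeated lines (112) were dropped by Ensembl identifier. Genes were filtered with filterByExpr (count 10, total 15), scaled by TMM and tested with the edgeR quasi-likelihood test (edgeR 4.0.16, R 4.3.3, two-sided, Benjamini-Hochberg adjusted over all genes, called under 0.05). The standard error is the absolute log2 change over the square root of F. Limma 3.58.1 (voom) and DESeq2 1.42.0 were alternatives, with other scalings, filters and libraries left out. The edgeR, limma-voom and DESeq2 fits were tested on simulated data. With 2 libraries a group, total counts of 13.9 to 15.3 M and a biological coefficient of variation of 5.23%, precision rests on the pooled dispersion. Replicate numbers were not used to pair the libraries. Deviations of those with the same number had a correlation of -0.067 over 10140 genes of at least 5 CPM. With 2 libraries a group both pairs give the same value by construction, so it shows no sign of pairing but cannot exclude it.

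The comparison and the 51 gene lists (1512 entries, 1254 in the table) were chosen with earlier results of these data known. Genes were named by a rule: RBPMS, USP1 and FOXO1, the 15 called genes per direction with the largest change (mean level of 2 or more in log2 CPM, no overlap), the 6 per direction with the largest CPM difference, per list up to 4 called and 2 uncalled members (the called ones at 0 or more in log2 CPM), the highest member per cell type list, and up to 6 genes per sign for the difference of effects. Many of these are not printed, and other members named were chosen after their values were seen, as were the E-box and ATF4 element and the promoters printed. Promoters are from RefSeq (GRCh38.p14), and gene positions and spans are GENCODE 29. Promoter entries matched 78.6% of the immediate early genes and 78.8% of the sterol genes, under 80%, so motif shares for those lists are void and not given. Some members of the sterol list are not reported here by name.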

Additional observations from a re-analysis of the deposited data

How the results depend on the processing

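Of the 4659 genes called, 4633 kept call and direction under RLE size factors, 4603 under limma-voom, 4653 without a filter, 4650 with a filter at a CPM of 1, 3819 under library totals alone and 3274 under DESeq2, and none reversed under these 6 settings. Genes that fell numbered 3276 under library totals alone and 1396 under DESeq2. With each library left out in turn, 1547 to 2722 genes rose and 1184 to 2306 fell, and 1 call changed direction (without RB98# replicate 2). A replicate block, although the numbers gave no sign of pairing, gave 2379 higher and 2051 lower, with 4373 calls kept. For the difference between the effects of RB98# and of the knockdown, 988 genes as reported, DESeq2 gave 1796 genes, the label set as a covariate 5439, the replicate block 4497 and leaving out 1 library 92 to 1541, and the cause was not tested. Of 102 counts of list members, 37 moved by over 1.5 times under library totals alone, 22 under DESeq2 and 7 under the replicate block, and only 6 of the 51 lists stayed within 1.5 times whichever library was left out. The list medians changed sign in 12 lists under library totals alone and in 7 or 8 lists with a library left out. Among named genes that were not called, the log2 change reversed for WARS1 (-0.086), TMSB4X (-0.018) and ZFP36L2 (-0.024) under library totals alone, and with a library left out it ran from -0.034 to 0.24 for RBPMS, -0.16 to 0.072 for USP1 and -0.012 to 0.043 for WARS1. Depth limits the rarest genes named, KLF1, CSF1R and FOS among them.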

Other observations

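Integrins, the receptors that tie cells to matrix, gave 3 higher and 1 lower of 15 tested. That is 20% and 6.67%, against 20.5% and 17.3% of all genes. ITGB1, the common beta chain, went from 476 and 469 CPM with DMSO to 589 and 555 CPM with RB98# (log2 change 0.28, adjusted p = 3.06e-04), and its partners ITGAV and ITGA4 rose by 0.48 and 0.35 on the log2 scale. ITGA2, a collagen receptor chain, fell from 3.89 and 5.21 to 1.91 and 2.02 CPM (log2 change -1.21, adjusted p = 0.00231), and it was not called without DMSO replicate 2 (adjusted p = 0.0632). Of 22 cytokines, chemokines and growth factors, 5 rose and 3 fell (3 without DMSO replicate 2 for the rises), which is 8 of 22 genes against 37.8% of all genes. Besides CXCL8, HBEGF, an EGF receptor ligand released by early responses, went from 1.98 and 2.07 to 5.73 and 4.33 CPM (log2 change 1.31), and HGF, a myeloid product that binds MET, rose by 0.43 on the log2 scale. IL16, a lymphocyte attractant, fell from 24.8 and 22.1 to 14.7 and 10.7 CPM (log2 change -0.87).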
